A study of Mus musculus with 23 samples.

Results

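The G2/M and mitosis genes are 35 genes whose products act late in the cell cycle, from the entry into mitosis to the separation of daughter cells. They were listed by symbol, and all 35 were found among the 23284 genes of the expression table. The table holds 16 single mouse bone marrow-derived mesenchymal stem cells (mMSC1 to mMSC16), 5 single HL-1 cardiomyocytes (HL1cm1 to HL1cm5) and 1 population control of each cell type (mMSC-PC and HL1cm-PC), which went through the same steps as a bulk sample. All cells were labelled C57BL/6J. The mMSCs, bought from a supplier that prepared them from male mice, were untreated and at passages 6 to 11. HL1cm are a line from a mouse atrial tumour that keeps dividing in culture, used at passages 70 to 85 as control cells. The mMSCs and HL1cm were captured in 1 microfluidic device, in which the HL1cm carried a green dye. Separate cultures are not named in the labels or methods, so each cell type counts as 1 sample, the cells are not replicates of a condition, and no test was made between them. The question put to these genes was how far they vary from cell to cell in a growing culture, and how mMSCs compare with HL1cm.

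Late in the cell cycle, cyclins A and B bind the kinase Cdk1 and start mitosis. Condensin and topoisomerase pack the chromosomes, kinetochores attach them to a spindle of microtubules moved by kinesins, and the spindle checkpoint holds back the anaphase-promoting complex (APC/C) until every chromosome is attached. The APC/C then marks cyclin B and other proteins for degradation, and a contractile ring divides the cell. Transcripts of most of these genes accumulate in G2 and mitosis and are low in resting cells and in G1, so they are commonly read as a sign of cells close to division. Their promoters often hold the CCAAT box, bound by the factor NF-Y, or the cell cycle genes homology region (CHR), bound by the MuvB complexes.

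Promoters of 6 members are shown as examples, each with both elements close to the start of transcription. The sequences are from RefSeq (GRCm38.p6) and read 5′ to 3′ on the strand of the gene, with capitals for the CHR core (TTTGAA, or TTCAAA on the other strand) and for the CCAAT box (CCAAT, or ATTGG on the other strand).
Ccnb2, chr9:70421543-70421646, minus strand: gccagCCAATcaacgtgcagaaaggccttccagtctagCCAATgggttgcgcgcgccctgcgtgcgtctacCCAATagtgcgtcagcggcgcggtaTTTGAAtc
Cdk1, chr10:69352913-69353002, minus strand: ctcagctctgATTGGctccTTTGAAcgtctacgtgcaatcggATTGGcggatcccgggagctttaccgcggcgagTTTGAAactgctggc
Top2a, chr11:99024190-99024295, minus strand: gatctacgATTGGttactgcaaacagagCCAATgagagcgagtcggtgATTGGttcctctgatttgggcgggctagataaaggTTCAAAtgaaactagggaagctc
Ube2c, chr2:164769834-164769928, plus strand: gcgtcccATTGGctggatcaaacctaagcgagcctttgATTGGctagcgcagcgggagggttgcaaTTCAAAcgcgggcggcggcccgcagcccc
Cdc20, chr4:118437344-118437403, minus strand: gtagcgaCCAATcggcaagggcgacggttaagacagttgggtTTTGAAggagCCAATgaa
Kif11, chr19:37376327-37376381, plus strand: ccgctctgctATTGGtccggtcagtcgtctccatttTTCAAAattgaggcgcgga

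Each stretch ends at position -1 from the RefSeq start site, or at position 12 in Ccnb2. The CHR core nearest to that start begins at position -29 in Ube2c, -23 in Top2a, -19 in Kif11, -18 in Cdc20, -15 in Cdk1 and 5 in Ccnb2. GENCODE starts Ube2c (164769898) and Cdk1 (69352938) further upstream, so by that annotation these cores of Ube2c and Cdk1 lie inside the gene. In Ccnb2, Cdk1, Top2a, Ube2c and Kif11 every CCAAT box shown lies upstream of that core, and in Cdc20 a box lies on each side of it. Over windows of 300 bases, from 250 before to 50 after the start, 30 of the 35 members had an entry, all but Ccna2, Aurkb, Tpx2, Dlgap5 and Smc4. A CHR core was found in 23 of the 30 (76.7%), against 20.2% of all 27025 genes with a promoter entry. A CCAAT box was found in 22 of the 30 (73.3%), against 41.1% of all genes, and both lay in the same promoter for 19 members (63.3%), against 7.97% of all genes. A box and a core can share no more than a base at their ends. Among 64 further genes of G2 and mitosis, kept apart from the members, 28 of the 49 with an entry held a CHR core (57.1%) and 36 a CCAAT box (73.5%). Among 28 genes of S phase, 3 of the 25 with an entry held a CHR core (12%) and 16 a CCAAT box (64%). The 7 members without a core in the window were Ccnb1, Birc5, Bub1, Cenpe, Nuf2, Nusap1 and Tacc3. The letters alone do not show that a factor was bound, and a relation between these elements and expression was not tested.

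**Figure D1:**
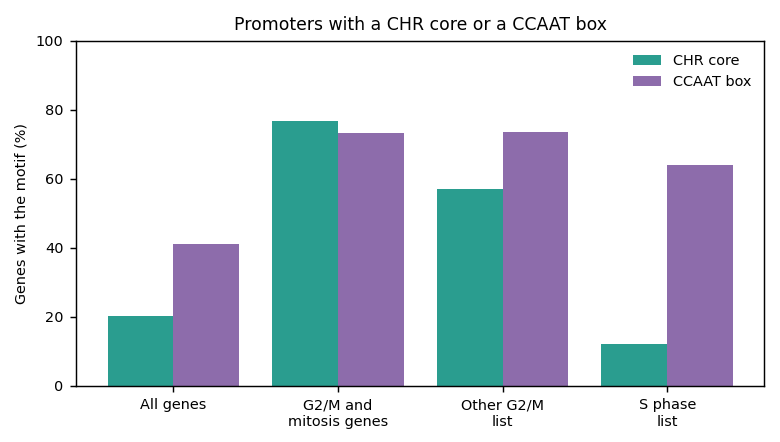
Share of genes (y axis, %) whose RefSeq promoter holds a CHR core or a CCAAT box, for all genes, the G2/M and mitosis genes, further G2/M genes and S phase genes. The CHR core stands at 76.7% of the members and 12% of the S phase genes, while the CCAAT box stands at 73.3% and 64%.

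Expression was given as FPKM, the number of sequenced fragments scaled to the exon length of a gene and to the mapped reads of the library, so levels can be compared between genes per length. A gene was counted as present at 1 FPKM or more, and log2 values were taken after values under 1 were set to 1. Between 5178 and 7241 genes were present per mMSC, 6428 to 7010 per HL1cm, and 9625 and 9881 in mMSC-PC and HL1cm-PC. The depth of the libraries is not in the table, but low values rise in steps worth 1 fragment. Against mMSC6, a fragment was worth 5.58 times as much in mMSC9 and 3.92 times as much in mMSC15, the shallowest by this estimate. In all other single cells it was worth 1.08 to 2.68 times as much. The summed FPKM of 6 mesenchymal markers was 1274 to 5923 in mMSCs and 162 to 835 in HL1cm, with Thy1 listed at 0 throughout. In HL1cm nearly all of it was Sparc, which at 833 FPKM in HL1cm2 was above mMSC4 (436 FPKM), and Col1a2 and Ly6a were at 0. The summed FPKM of 6 atrial cardiomyocyte markers was 0 to 65.4 in mMSCs and 30714 to 57326 in HL1cm, where most of it was Myl7 (20292 to 46701 FPKM). Nppa was at 0 in all mMSCs and in HL1cm2, HL1cm3 and HL1cm5. Ptprc, Emr1 and Lyz2 of macrophages were listed at 0 in every single cell, as was Cdh5 of endothelium. Of the other markers of these cells, Csf1r was present in 8 mMSCs, up to 32.6 FPKM in mMSC15, Itgam in HL1cm3 (1.10 FPKM), Kdr in mMSC13 (10.8 FPKM), HL1cm1 (13.8 FPKM) and HL1cm4 (6.31 FPKM), and Pecam1 in HL1cm3 (6.00 FPKM). A value of 0 may be a failed capture or estimate: 5 genes were listed at 0 in exactly 1 mMSC and at 100 FPKM or more in the other 15.

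The mMSCs included cells with nearly all of the mitosis genes and cells with few. All 35 were present in mMSC4, mMSC8 and mMSC11, 32 in mMSC1 and mMSC14, 30 in mMSC5, and 20 in mMSC6 and mMSC16. The other 8 cells had 10 or fewer: 10 in mMSC2 and mMSC7, 9 in mMSC13 and mMSC15, 7 in mMSC3 and mMSC12, 6 in mMSC10 and 4 in mMSC9. No mMSC lay between 10 and 20. The median was 15 of 35 (SD 12.3 over 16 cells), and 8 of 16 mMSCs (50%, exact 95% interval 24.7 to 75.3) had 18 or more members, and 6 of 16 (37.5%, 15.2 to 64.6) had 30 or more. These intervals cover counting error only. The study selected single, live cells from a capture chip for large cells, and the part of that selection in these shares was not tested.

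Among HL1cm, all 35 members were present in HL1cm1, HL1cm3 and HL1cm5, and 33 in HL1cm4, where Cdc20 and Cenpa were under 1 FPKM. HL1cm2 had 13. Thus 4 of 5 HL1cm (80%, exact 95% interval 28.4 to 99.5) had 18 or more members. Both population controls had all 35.

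**Figure D2:**
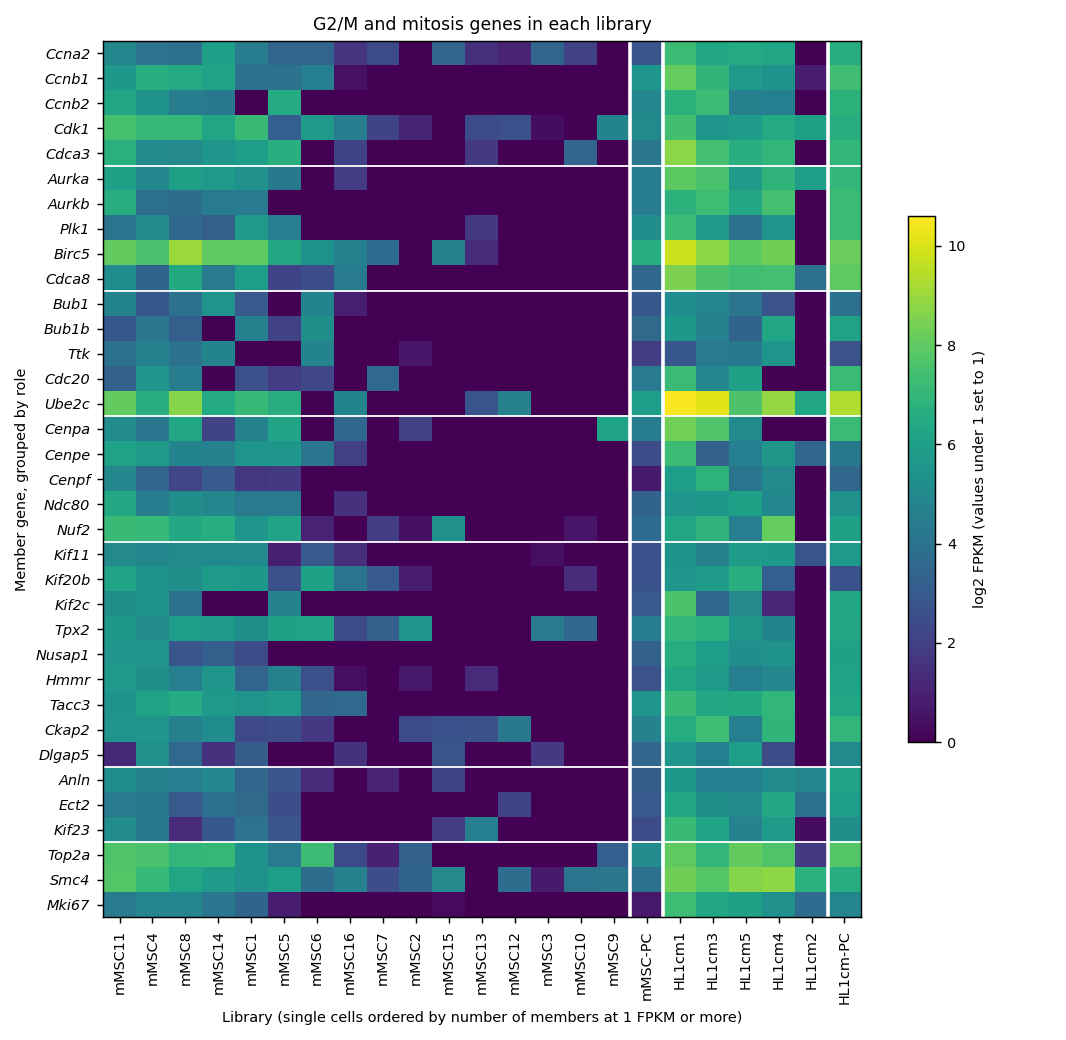
log2 FPKM (colour, values under 1 set to 1) of the 35 members (rows, white lines between roles) in 23 libraries (columns, single cells in order of the number of members present). The 8 mMSCs on the right of the first block and HL1cm2 are dark for most members, while mMSC11, mMSC4 and mMSC8 show all of them.

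Cell by cell, the mitosis genes can be set beside genes of S phase. Of 28 S phase genes, such as the Mcm helicase subunits, 8 to 27 were present per mMSC, with a median of 19.5. In mMSC6 and mMSC16, with 20 of 35 mitosis genes, 26 and 25 S phase genes were present, and mMSC10 had 21 S phase genes with 6 mitosis genes. In mMSC5 the order was the opposite, with 30 mitosis genes and 18 S phase genes. Over the 16 mMSCs, the number of members present went with the number of S phase genes (Pearson's r = 0.785, Spearman's rho = 0.682, n = 16; r = 0.759 without mMSC12 and mMSC15), more closely with that of the 64 further G2/M genes (r = 0.965, rho = 0.861; r = 0.960 without mMSC11 and mMSC14), and less with the number of all genes present (r = 0.530, rho = 0.530; r = 0.462 without mMSC9 and mMSC15). These are descriptions over cells of 1 culture, which also share differences in depth. The lists were chosen with earlier results of these data known. The shallow mMSC9 and mMSC15 had 4 and 9 members, and the part of depth in these counts was not tested.

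**Figure D3:**
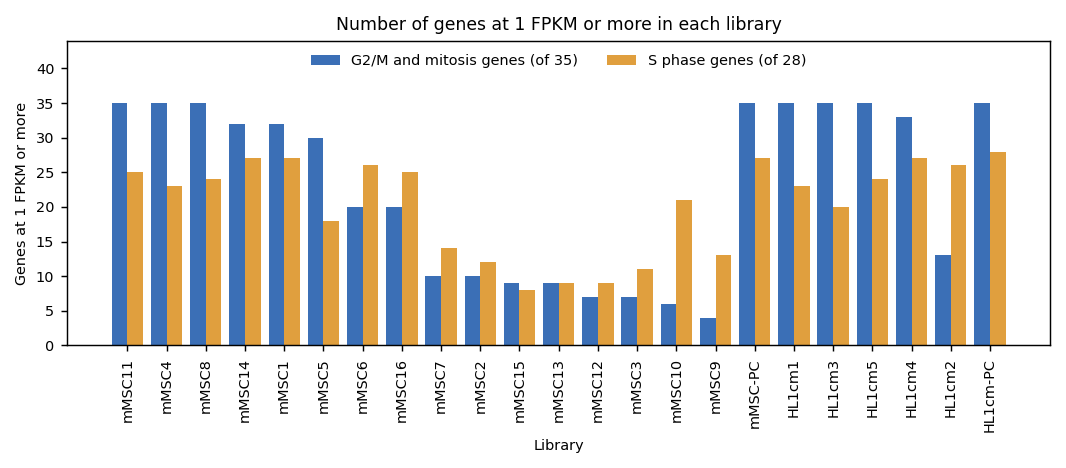
Number of G2/M and mitosis genes (of 35, blue) and of S phase genes (of 28, orange) at 1 FPKM or more in each library. HL1cm2 and mMSC10 have 26 and 21 S phase genes but 13 and 6 mitosis genes.

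The cells with few members held different ones, of which some were shared. In the 8 mMSCs with 10 or fewer, 13 members were under 1 FPKM in every cell: Ccnb1, Ccnb2, Aurka, Aurkb, Cdca8, Bub1, Bub1b, Cenpe, Cenpf, Ndc80, Kif2c, Nusap1 and Tacc3. Smc4 was present in 7 of the 8, Ccna2 and Cdk1 in 6, and Birc5 in 5. Some single values were high in such cells. In mMSC9 Cenpa was at 70.7 FPKM and Cdk1 at 27.5 FPKM while all 9 spindle genes were under 1 FPKM. A fragment was worth 5.58 times as much there as in mMSC6, and the lowest member above 0 was at 9.01 FPKM. The values in mMSC9 may thus rest on few fragments. In mMSC2 Tpx2 was at 44.97 FPKM.

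The cells between the extremes lacked different genes. In mMSC6, 15 members were under 1 FPKM, among them Ccnb2, Cdca3, Aurka, Aurkb, Plk1, Ube2c and Mki67, yet mMSC6 held the highest mMSC values of Tpx2 (69.8 FPKM), Bub1b (37.8 FPKM) and Ttk (27.7 FPKM), and Top2a at 153 FPKM. In mMSC16, 15 members were under 1 FPKM, including all 3 cytokinesis genes. In mMSC5, the 5 members under 1 FPKM were Aurkb, Bub1, Ttk, Nusap1 and Dlgap5, while Ccnb2 reached its highest mMSC value there, 92.4 FPKM. The 3 missing in mMSC1 were Ccnb2, Ttk and Kif2c, and those missing in mMSC14 were Bub1b, Cdc20 and Kif2c. The highest mMSC value lay in mMSC11 for 16 of the 35 members, and in mMSC4 and mMSC8 for 6 each.

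Among the 5 genes of cyclins and Cdk1, Ccna2 (cyclin A2) and Cdk1 were present in 14 of 16 mMSCs, Cdca3, linked to mitotic entry, in 9, Ccnb1 (cyclin B1) in 8 and Ccnb2 (cyclin B2) in 5. Cdk1 (chr10:69335146-69352938, minus strand), the kinase of mitotic entry, ranged over mMSCs from 0 to 182 FPKM (in mMSC11), with a median of 15.6 FPKM. In HL1cm1 to HL1cm5 Cdk1 was at 167, 65.7, 47.3, 89.5 and 55.9 FPKM, and it was at 33.5 FPKM in mMSC-PC and 98.3 FPKM in HL1cm-PC. The ranges of Cdk1 overlapped, since mMSC11 was above all 5 HL1cm, and mMSC1, mMSC4 and mMSC8 were above 4 of them. Cdca3 (chr6:124829547-124833701, plus strand) ranged in mMSCs from 0 to 107 FPKM, with a median of 3.96 FPKM, and was at 436, 0, 173, 126 and 99.0 FPKM in HL1cm1 to HL1cm5, 18.5 FPKM in mMSC-PC and 129 FPKM in HL1cm-PC. For Cdca3 only mMSC5 and mMSC11 were above the second lowest HL1cm. Ccnb1 reached 103 FPKM in mMSC4 and was listed at 0 in 8 mMSCs, and ran from 1.80 FPKM in HL1cm2 to 273 FPKM in HL1cm1.

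The kinases and the chromosomal passenger complex, which corrects chromosome attachment, were the role with the widest gap between the cell types. Birc5 (survivin, chr11:117849251-117855743, plus strand), a subunit of that complex, was present in 13 mMSCs, from 0 to 515 FPKM (in mMSC8) with a median of 25.7 FPKM. Birc5 was at 877, 0, 446, 319 and 245 FPKM in HL1cm1 to HL1cm5, at 94.7 FPKM in mMSC-PC and at 294 FPKM in HL1cm-PC. It was the most abundant member in mMSC1, mMSC4, mMSC8, mMSC11 and mMSC14, at 191 FPKM in mMSC4 and above HL1cm5 in the other 4, so the groups overlapped. Birc5 was also the most abundant member in mMSC7, at 12.97 FPKM. Aurka (chr2:172356190-172370535, minus strand), a kinase of centrosomes and spindle poles, was present in 7 mMSCs, with a median of 0 and a highest value of 66.8 FPKM in mMSC11. Aurka was at 241, 60.7, 190.1, 117 and 56.5 FPKM in HL1cm1 to HL1cm5, 22.2 FPKM in mMSC-PC and 128 FPKM in HL1cm-PC, and mMSC8 and mMSC11 alone were above the lowest HL1cm. Of the others, Cdca8 (borealin), a partner of Birc5, was present in 8 mMSCs, up to 86.2 FPKM, Plk1, a kinase acting throughout mitosis, in 7, up to 53.8 FPKM, and Aurkb, the kinase of the passenger complex, in 5, up to 97.9 FPKM. HL1cm reached 361, 154 and 179 FPKM for these genes in turn.

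Among spindle checkpoint and APC/C genes, Ube2c (chr2:164769898-164778822, plus strand), which passes ubiquitin to APC/C targets, had the highest FPKM of any member. Ube2c was present in 9 mMSCs, with a median of 15.54 FPKM and a highest value of 407 FPKM in mMSC8. It was at 1456, 77.7, 1154, 467 and 202 FPKM in HL1cm1 to HL1cm5, at 61.5 FPKM in mMSC-PC and 646 FPKM in HL1cm-PC, and 6 mMSCs were above HL1cm2. Bub1 (chr2:127801122-127831865, minus strand), a checkpoint kinase, was present in 7 mMSCs, with a median of 0 and a highest value of 44.98 FPKM in mMSC14. Bub1 was at 35.3, 0, 28.3, 6.51 and 17.0 FPKM in HL1cm1 to HL1cm5, at 7.28 FPKM in mMSC-PC and 15.8 FPKM in HL1cm-PC, so mMSC14 was above every HL1cm. Bub1b and Ttk, also of the spindle checkpoint, were present in 6 mMSCs each, and Cdc20, the activator of the APC/C, in 7, with highest values of 37.8, 27.7 and 46.6 FPKM, against 77.8, 44.4 and 151 FPKM in HL1cm.

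Of the centromere and kinetochore genes, Nuf2 (chr1:169497934-169531464, minus strand), a subunit of the complex that grips microtubules, was present in 11 mMSCs, from 0 to 146 FPKM with a median of 2.94 FPKM. Nuf2 was at 75.8, 0, 120, 274 and 23.4 FPKM in HL1cm1 to HL1cm5, 13.1 FPKM in mMSC-PC and 66.1 FPKM in HL1cm-PC, and its groups overlapped over most of their range. Cenpa (chr5:30666777-30674830, plus strand), the histone variant that marks centromeres, was present in 9 mMSCs, from 0 to 79.3 FPKM with a median of 4.32 FPKM. Cenpa was at 323, 0, 203, 0 and 33.1 FPKM in HL1cm1 to HL1cm5, 21.6 FPKM in mMSC-PC and 148 FPKM in HL1cm-PC. The HL1cm values of Cenpa thus ran from 0 to above every mMSC. Cenpe, a kinetochore kinesin, was present in 8 mMSCs, Ndc80, the partner of Nuf2, in 7 and Cenpf, of the outer kinetochore, in 6, with highest values of 69.6, 83.8 and 30.4 FPKM.

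The 9 genes of spindle motors and microtubule-associated proteins included those that differed least between the cell types. Tpx2 (chr2:152847964-152895321, plus strand), which activates Aurka on the spindle, was present in 12 mMSCs, from 0 to 69.8 FPKM with a median of 27.4 FPKM. Tpx2 was at 128, 0, 105, 27.4 and 48.2 FPKM in HL1cm1 to HL1cm5, 22.2 FPKM in mMSC-PC and 84.5 FPKM in HL1cm-PC, and 8 mMSCs were above HL1cm4. Tacc3 (chr5:33658128-33678995, plus strand), which stabilises spindle microtubules, was present in 8 mMSCs, from 0 to 92.0 FPKM with a median of 5.58 FPKM. Tacc3 was at 142, 0, 79.5, 127 and 87.4 FPKM in HL1cm1 to HL1cm5, 48.1 FPKM in mMSC-PC and 77.7 FPKM in HL1cm-PC, and mMSC8 alone was above the second lowest HL1cm. The other 7 were present in 4 mMSCs (Kif2c, a microtubule depolymerase) to 11 (Kif20b, a kinesin of late mitosis, and Ckap2, a microtubule-associated protein), with Kif11, the motor that separates spindle poles, in 9, Hmmr in 10, Dlgap5 in 8 and Nusap1 in 5.

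Among cytokinesis genes, Anln (anillin, chr9:22332012-22389188, minus strand), a scaffold of the contractile ring, was present in 9 mMSCs, from 0 to 35.5 FPKM with a median of 2.27 FPKM. Anln was at 50.4, 28.6, 24.2, 34.8 and 23.6 FPKM in HL1cm1 to HL1cm5, 8.71 FPKM in mMSC-PC and 73.5 FPKM in HL1cm-PC, and HL1cm2 lay within the range of the other HL1cm. Kif23 (chr9:61915905-61946774, minus strand), a kinesin of the central spindle, was present in 8 mMSCs, from 0 to 34.4 FPKM with a median of 1.25 FPKM. Kif23 was at 144, 1.27, 72.4, 58.4 and 25.9 FPKM in HL1cm1 to HL1cm5, 5.56 FPKM in mMSC-PC and 37.5 FPKM in HL1cm-PC, so that mMSC11 alone was above the second lowest HL1cm. Ect2, which activates RhoA at the division site, was present in 7 mMSCs and reached 19.97 FPKM.

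Among genes of chromosome structure, Top2a (chr11:98992943-99024189, minus strand), the topoisomerase that untangles chromosomes, was present in 11 mMSCs, from 0 to 204 FPKM with a median of 9.40 FPKM. Top2a was at 254, 3.46, 125, 205 and 262 FPKM in HL1cm1 to HL1cm5, 34.7 FPKM in mMSC-PC and 219.8 FPKM in HL1cm-PC, and 5 mMSCs were above the second lowest HL1cm. Smc4 (chr3:69004738-69034623, plus strand), a condensin subunit, was the member present most often, in 15 mMSCs, from 0 to 216.1 FPKM with a median of 22.2 FPKM. Smc4 was at 315, 108, 217.3, 439 and 407 FPKM in HL1cm1 to HL1cm5, 15.7 FPKM in mMSC-PC and 96.1 FPKM in HL1cm-PC. For Smc4 mMSC4 and mMSC11 alone were above HL1cm2, and none was above the other 4 HL1cm. Mki67, the proliferation marker Ki-67, was present in 7 mMSCs and reached 29.5 FPKM.

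**Figure D4:**
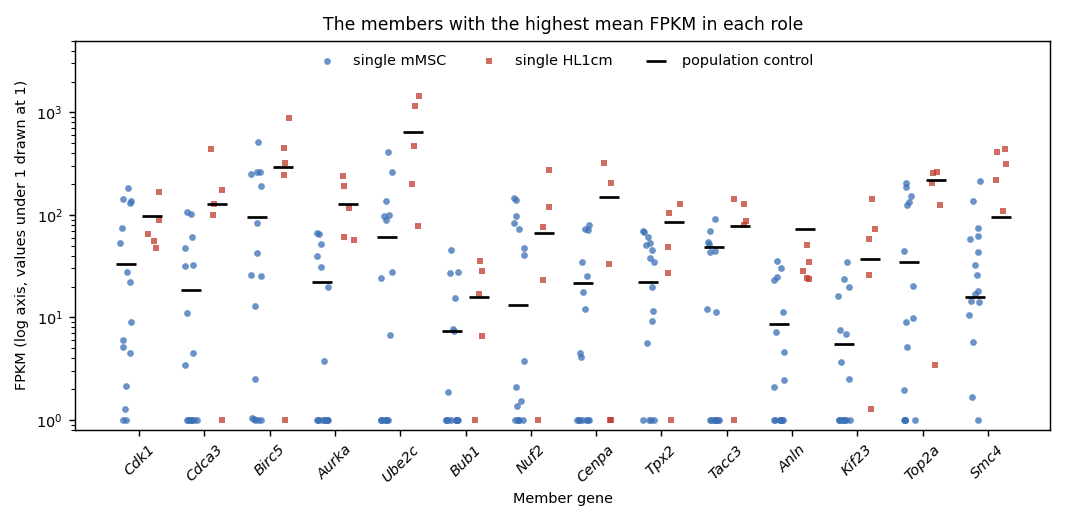
FPKM (log axis, values under 1 drawn at 1) of the 2 members of each role with the highest mean FPKM over mMSCs, with a blue point for each of 16 mMSCs, a red square for each of 5 HL1cm and a bar for the population control. From 1 mMSC point (Smc4) to 9 (Aurka, Bub1) lie at the floor, and the points above it reach into the HL1cm range.

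Taking all cells, the mean log2 FPKM was lower in mMSCs than in HL1cm by more than 1 for 35 of 35 members, where 21.6% of the 11850 genes present in at least 2 single cells were lower by as much, and higher by more than 1 for 0 of 35 (21.4% of all genes). The median difference (mMSC minus HL1cm) over the members was -2.76 on the log2 scale, against 0.08 over all genes. It ran from -5.22 for Ube2c, -4.82 for Cdca8 and -4.68 for Aurka to -1.13 for Tpx2, -1.34 for Kif20b and -1.69 for Cenpa. By role, the median difference was -4.17 for kinases and passenger complex, -3.64 for chromosome structure, -3.17 for cytokinesis, -2.98 for cyclins and Cdk1, -2.45 for centromere and kinetochore, -2.41 for spindle motors and microtubule proteins and -2.16 for spindle checkpoint and APC/C. The highest mMSC was below the lowest HL1cm for 0 of 35 members (1.88% of all genes). For 0 of 35 the lowest mMSC was above the highest HL1cm (2.26%). Both counts are close to the shares over all genes, so the overlap of the groups is not particular to the members. For 14 of 35 the highest mMSC was below the HL1cm median (7.60% of all genes). A mean over mMSCs includes cells with nearly no member, and the share of such cells and the level in the others enter it alike.

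Of the 28 S phase genes, 18 were lower in mMSCs by more than 1 and 2 higher, with a median difference of -2.13. Of the 64 further G2/M genes, 63 were present in at least 2 cells (all but Kifc1), of which 45 were lower by more than 1 and 0 higher, with a median of -2.23. Between the population controls, 32 of 35 members were lower in mMSC-PC than in HL1cm-PC by more than 1, and 0 were higher. Of the 11509 genes present in either control, 39.0% were lower by as much and 20.5% higher. The median difference was -2.61 over the members and -0.54 over all genes. The 3 members that were not lower by as much included Kif20b, at 6.46 FPKM in mMSC-PC and 6.38 FPKM in HL1cm-PC. In a bulk sample, fewer cells with a transcript and less of it per cell cannot be told apart.

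HL1cm2 stood apart from the other HL1cm. Its value was the lowest of the HL1cm, or level with the lowest, for 31 of the 35 members, all but Cdk1, Aurka, Cenpe and Anln (31.7% of the 8244 genes present in at least 2 HL1cm), and it was listed at 0 for 20 (24.2%). Over those genes the other HL1cm were lowest or level for 25.9% to 34.5%, and for 0 to 2 members. Its mean member log2 FPKM was 1.45, against 5.51 to 6.97 in the other 4. Its S phase genes did not follow, with 26 of 28 present and a mean log2 FPKM of 5.32, and it had 6428 genes present and a fragment worth 1.28 times that in mMSC6. The highest members in HL1cm2 were Smc4 (108 FPKM), Ube2c (77.7 FPKM), Cdk1 (65.7 FPKM) and Aurka (60.7 FPKM). Without HL1cm2, the median difference over the members was -3.88, still with 35 of 35 lower by more than 1 (22.3% of all genes), and the highest mMSC was below the lowest HL1cm for 5 of 35 members (2.29% of all genes). These were Cdca8 (86.2 against 164 FPKM), Ccna2 (62.8 against 74.8 FPKM), Mki67 (29.5 against 39.9 FPKM), Ect2 (19.97 against 33.3 FPKM) and Smc4, which was close to overlap (216.1 against 217.3 FPKM). Leaving out HL1cm1, HL1cm3, HL1cm4 or HL1cm5 in place of HL1cm2, no member was without overlap (2.14%, 2.49%, 2.20% and 2.59% of all genes in turn), and 33, 32, 35 and 33 members were lower by more than 1 (21.4%, 22.9%, 21.6% and 23.0%).

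Across the 16 mMSCs, the members varied together. Over the 595 pairs of members the median Pearson's r of log2 FPKM was 0.72 (0.19 to 0.99), and 90.1% of pairs were above 0.5, against a median of 0.0002 and 2.80% over the pairs of all 10867 genes present in at least 2 mMSCs. The closest pairs were Aurka with Ndc80 (r = 0.99), Cenpe with Tacc3 (r = 0.97) and Nuf2 with Anln (r = 0.97), and the loosest were Ccna2 with Cenpa (r = 0.19) and Tpx2 with Kif23 (r = 0.20). Against the mean of the other 34 members, Ndc80, Aurka, Hmmr and Ccnb1 were at r = 0.96, and Dlgap5 (0.59), Cenpa (0.63), Tpx2 (0.65) and Kif23 (0.66) were lowest. The SD of log2 FPKM over mMSCs had a median of 2.28 over the members, from 1.59 for Cenpf to 3.47 for Birc5, and of 1.38 over all genes. These correlations are descriptions over n = 16 cells that share a culture and differ in depth, and values set to the floor enter every pair. The members were chosen with earlier results of these data known, so they are not an independent list.

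Outside the list, 9151 genes present in at least 4 mMSCs were compared with the mean log2 FPKM of the members over the same 16 cells. Their median r was 0.03, and 48 were above 0.8, of which 20 belonged to the further G2/M genes and 2 to the S phase genes. The 5 closest were Cenpm, a centromere protein (r = 0.99), Cep55, which acts when daughter cells part (r = 0.97), Shcbp1 (r = 0.97), Kif15, a spindle kinesin (r = 0.95), and Pbk, a kinase active in mitosis (r = 0.95). Their highest mMSC values were 70.5 FPKM in mMSC4 for Cenpm, 105 FPKM for Cep55, 71.3 FPKM for Shcbp1 and 28.02 FPKM for Kif15, all in mMSC11, and 232 FPKM in mMSC8 for Pbk.

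The population controls were compared with the mean FPKM of the single cells of the same type. In mMSC-PC, 7 of 35 members were higher by more than 1 on the log2 scale (23.5% of 10867 genes) and 6 lower (19.0%), with a median difference of -0.23, against 0 over all genes. In HL1cm-PC, 4 were higher (33.9% of 8244 genes) and 6 lower (14.4%), with a median of 0.26, against 0.49 over all genes. These values depended on the scaling. With libraries rescaled to 1 sum, the median was 0.43 in mMSC-PC (0.43 over all genes), with 11 members higher (34.2% of all genes) and 5 lower (13.9%), and 1.07 in HL1cm-PC (1.02 over all genes), with 19 higher (50.4%) and 4 lower (9.55%). The HL1cm-PC median was 0.53, with 9 members higher, without HL1cm1, and 0.04 without HL1cm2. As deposited, the members lower in mMSC-PC were Mki67 (-2.10), Kif20b (-1.82), Cenpe (-1.68), Nuf2 (-1.60), Smc4 (-1.54) and Cenpf (-1.22), and those lower in HL1cm-PC were Kif20b (-2.75), Cenpf (-2.005), Smc4 (-1.63), Ttk (-1.45), Cenpe (-1.34) and Mki67 (-1.27). Cenpe, Cenpf, Kif20b, Mki67 and Smc4 were in both sets, 83.3% of each, and after rescaling Kif20b and Smc4 alone were. Plk1 (1.96 and 1.45) and Cdc20 (1.62 and 1.61) were higher in both controls, 28.6% of the members higher in mMSC-PC and 50% of those higher in HL1cm-PC. After rescaling they were among 8 members higher in both. The share of such overlap between the controls was not computed over all genes, so these overlaps are not read as particular to the members.

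Transcript length moved with these differences. The longest transcripts of the 5 members lower in both controls as deposited had 4316 to 11130 bases (median 7910), and those of the other 30 had 1531 to 5221 (median 3378). Over the 35 members, Spearman's rho of the difference with length was -0.62 in mMSC-PC and -0.35 in HL1cm-PC, against -0.06 and -0.09 over 6828 genes. The differences in both controls went together over the members (r = 0.73, rho = 0.64, n = 35), and over all 7561 genes present in both comparisons (r = 0.53, rho = 0.50). The part of length in the differences was not tested, and each control is 1 library.

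**Figure D5:**
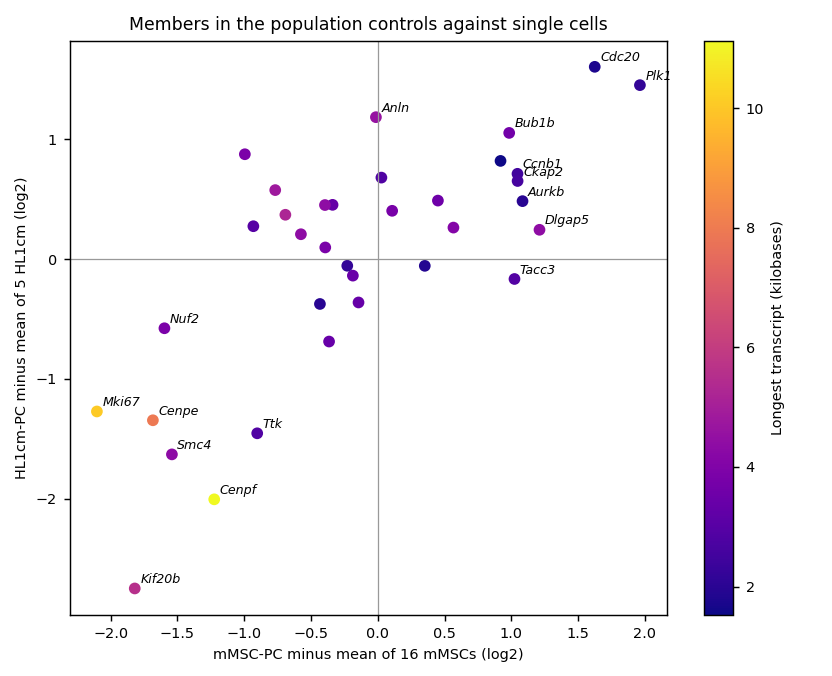
Difference in log2 FPKM between a population control and the mean of its single cells, for mMSCs (x axis) and HL1cm (y axis), 1 point a member, coloured by the longest transcript in kilobases. Kif20b, Cenpf, Cenpe, Mki67 and Smc4 are lower by more than 1 in both controls with libraries as deposited, and Plk1 and Cdc20 higher in both.

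The members lie on 15 chromosomes in the GENCODE annotation of GRCm38. Exons of 7 overlap a gene on the opposite strand: Ccna2 and Exosc9, Plk1 and Gm44985, Cdca8 and 9930104L06Rik, Cdc20 and Elovl1, Ube2c and Tnnc2, Nusap1 and Oip5, and Tacc3 and Tmem129. Top2a overlaps Gm23451 on the same strand, and Ccnb1 and Ccnb2 have a named pseudogene each. The library kits named in the study's methods do not mark strand, and aligner and estimator ran with default options, so reads of a gene and its partner on the opposite strand cannot be told apart and the values of these genes are less certain.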

How the data were processed

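Libraries of 16 single mMSCs, 5 single HL1cm and 1 population control of each cell type were analysed. The authors aligned the reads to mm10 with TopHat2 (2.0.12) and estimated FPKM with Cufflinks (2.2.1), and their FPKM values were taken unchanged from the deposited table. Counts of reads were not analysed here, and the aligned read pairs that the study lists for each single cell were not used. The depth was described by the worth of 1 fragment, estimated from the steps of low values, and no count model was fitted. Each cell type was treated as 1 sample, and all comparisons are descriptions without a test. For log2 values, FPKM was floored at 1. Differences of more than 1 were counted over the genes present (1 FPKM) in at least 2 cells. Between the population controls they were counted over the genes present in either control. Shares of cells carry exact (Clopper-Pearson) 95% intervals. The values in a population control were set against the mean FPKM of single cells. Named genes were the 2 members of each role with the highest mean FPKM over mMSCs, the 3 largest differences in each direction, members without overlap and the 5 genes closest in r. Cells and genes named besides were chosen after their values were seen. The members and lists were chosen with earlier results of these data known. Promoters were taken from RefSeq (GRCm38.p6), and positions and lengths from GENCODE. Alternatives changed the limit of detection, the floor, the log scale, the scaling of libraries, the filter and the cells included. The scripts ran in Python 3.11.15 with scipy 1.17.1, pandas 2.3.3 and numpy 2.4.6, drew plots with matplotlib 3.10.9, and were tested on simulated data.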

Additional observations from a re-analysis of the deposited data

Results flagged for a closer look

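In 39 measures over the 5 HL1cm, 35 of them single members, the gap between the lowest or highest cell and its neighbour was compared with Dixon's limit. That limit is 0.71 of the range, which chance passes in about 1 of 20 groups of independent values with a normal spread. It served as a flag and not as a test, since the cells are not replicates of a condition. The limit was passed 13 times, each time by a low value in HL1cm2. Values in HL1cm2 are given here with the range of the other 4 HL1cm. In the role of cyclins and Cdk1, Ccna2 was at 0.987 FPKM (74.8 to 152) and Cdca3, linked to mitotic entry, at 0 (99.0 to 436). In the passenger complex, Aurkb was at 0 (83.7 to 179), Birc5 at 0 (245 to 877) and Cdca8 at 14.5 FPKM (164 to 361). Ndc80 of the kinetochore was at 0 (30.8 to 65.7). Among spindle genes, Nusap1 was at 0 (36.3 to 97.9), Hmmr at 0.872 FPKM (24.0 to 82.5) and Tacc3 at 0 (79.5 to 142), and Top2a was at 3.46 FPKM (125 to 262). The number of members present was 13 (33 to 35), the mean member log2 FPKM 1.45 (5.51 to 6.97) and the number of further G2/M genes present 30 (54 to 60). The measures are not independent, since the members vary together. No relation with the number of genes present or with the worth of a fragment was tested.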

How the results depend on the processing

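Of 97 values recomputed under an alternative, 91 lay within 1 spread of the main value without a change of sign or, for counts, within 1.5 times of it. The spread was the SD between cells, except for the correlation (SD over pairs) and the SD of members (SD over members). It was wide, at 12.3 members per mMSC and 2.02 log2 units for the median difference, so values within it can still differ much. Every member was present in at least 4 mMSCs, so the alternatives to the filter changed no value. With libraries rescaled to 1 sum, the median difference of mMSC-PC from the mean of mMSCs turned from -0.23 to 0.43, and it was 0 with a floor of 10 FPKM, so no direction is read from it. With that floor the median SD of members between mMSCs was 0.91 in place of 2.28, since fewer values lie above it. Rescaling also took the members higher in mMSC-PC from 7 to 11 and those higher in HL1cm-PC from 4 to 19 (9 without HL1cm1), counts added after the data were seen, and the median of HL1cm-PC from 0.26 to 1.07. That median was 0.04 to 0.53 leaving out each HL1cm. Members without overlap between mMSCs and HL1cm numbered 5 without HL1cm2, an alternative added after the data were seen, and 0 without any other HL1cm. The number of members lower in mMSCs was 29 with that floor, 30 at a difference of more than 2, 34 after rescaling, 33 without mMSC9 and mMSC15, and 32 to 35 leaving out each HL1cm, with a median difference of -1.47 with that floor, -2.40 after rescaling and -3.88 to -2.23 leaving out each HL1cm. Shares over all genes for the members lower in mMSCs stand above for leaving out each HL1cm. They were not computed for the other settings of that count, nor for the 9 members higher in HL1cm-PC without HL1cm1. For those settings the counts describe the members only. At 10 FPKM the median number of members was 6 per mMSC and 34 per HL1cm, and 6 mMSCs had 18 or more. No paired analysis was possible because the results come from no test and a number shared by an mMSC and an HL1cm only names a cell. Low values rest on few fragments, so a member listed at 0 was not detected at this depth and is not shown to be absent.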
